A study of Mus musculus with 10 samples.

Results

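The nuclear-encoded subunits of the mitochondrial respiratory chain were examined in the E14 line of mouse embryonic stem cells. They were taken as the protein-coding rows of the RNA-seq tables whose gene symbol names a subunit family: Nduf with a, b, c, s or v, Sdha to Sdhd, Uqcr, Cox4 to Cox8, and Atp5, with the Ndufaf assembly factors left out. This name rule gave 86 of the 55487 genes of the tables, with 85 symbols, because Atp5o has 2 rows. By complex, 36 belonged to complex I, 4 to complex II, 8 to complex III, 20 to complex IV and 18 to complex V. Ndufa4 and Ndufa4l2 carry complex I names but were placed in complex IV, where the Ndufa4 protein resides. Another 13 rows matched by name were not annotated as protein coding and were left out, 12 of them as processed pseudogenes.

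The respiratory chain sits in the inner mitochondrial membrane. Complexes I and II pass electrons from NADH and succinate to ubiquinone, complex III passes them on to cytochrome c, and complex IV passes them to oxygen. Complexes I, III and IV pump protons, and complex V, the ATP synthase, makes ATP as the protons flow back. Most subunits are encoded in the nucleus and imported, a few are encoded in the mitochondrial genome, and several complex IV subunits have a second gene used mainly in muscle, testis or lung. Pluripotent stem cells are known for active glycolysis, alongside a functional respiratory chain.

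The series develops a strand-specific method for mapping R-loops and holds 10 samples, 7 of them R-loop maps that are not analysed here. The other 3 are RNA-seq libraries, replicates 1, 2 and 3 of 1 group of E14 cells with no perturbation named. Per the labels, the cells grew in serum medium with LIF and with inhibitors of GSK and of MEK1/2, and rRNA-depleted total RNA was made into directional libraries. With 1 group, no condition could be compared, and all comparisons below are between genes within these libraries.

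Library totals were 11420425 estimated counts for replicate 1, 6467405 for replicate 2 and 5787357 for replicate 3. The labels do not say whether the replicates came from separate cultures, so the spread between them may be technical. All 8 pluripotency markers had a mean of at least 1 TPM, among them Pou5f1 at 149 ± 21.7 TPM (SD, n = 3). Of the markers of other cells, 1 of 6 fibroblast genes (Thy1, 2.50 TPM), 0 of 4 endoderm genes, 1 of 6 striated muscle genes (Mylpf, 39.0 TPM) and 0 of 6 male germ cell genes reached that level. Col3a1, Lum, Dcn, Foxa2, Tnp1, Prm1, Prm2 and Odf1 had no count in any library. The summed level of the 6 fibroblast genes was 3.15, 3.37 and 1.24 TPM in replicates 1, 2 and 3.

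Nearly the whole set of subunits was expressed. A mean of at least 1 TPM (a level scaled by transcript length and to the same total in each library) was reached by 81 of the 86 members, 94.2%, against 9684 of 21974 protein-coding genes, 44.1%. At least 10 TPM was reached by 71 members, and 6 had at least 100 TPM: Atp5b, Cox6b1, Atp5a1, Cox8a, Cox7b and Ndufa4. The 5 members under 1 TPM were all complex IV genes with a restricted tissue range in the adult: Cox4i2, Cox7b2, Cox6a2, Cox8b and Cox8c. The median level over members was 32.6 TPM in replicate 1, 29.9 in replicate 2 and 26.2 in replicate 3. On the log2(TPM + 1) scale the median was 4.93 ± 0.15 (SD, n = 3), beside 2.72 ± 0.29 over the 9684 protein-coding genes at 1 TPM or more. This level rests on the TPM total: it was 6.35 with TPM rescaled without genes of effective length under 100 nt, and 6.40 in FPKM. Of the members, 76 were above the median of those genes and 45 were above their 90th percentile, 29.2 TPM. Together the members held 0.643%, 0.708% and 0.725% of all estimated counts in replicates 1, 2 and 3.

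**Figure D1:**
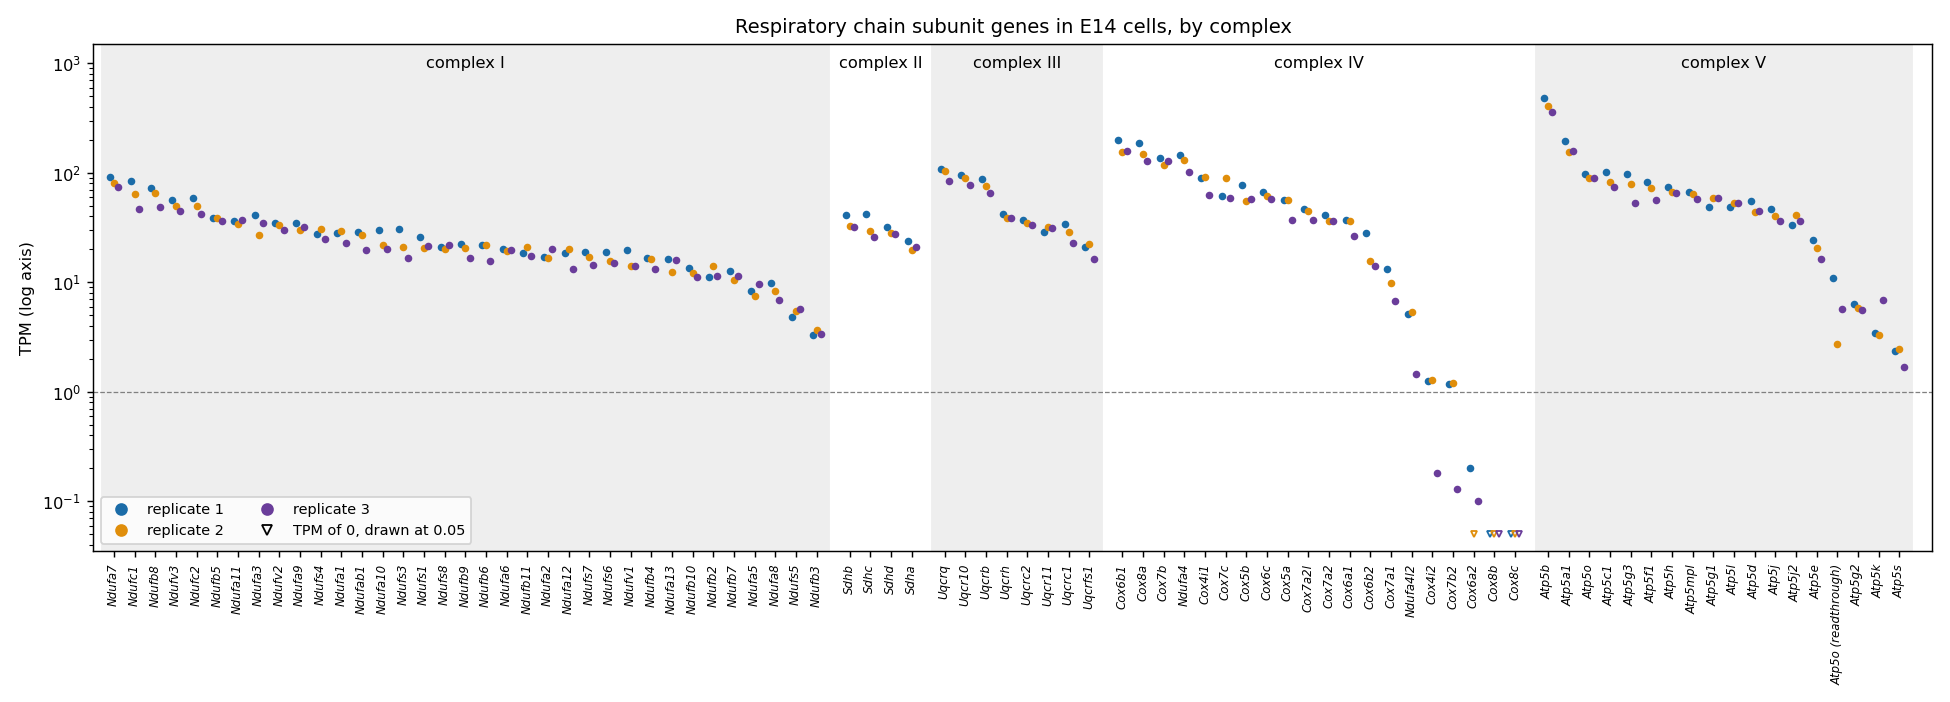
TPM (log axis) of 85 of the 86 members in each of the 3 replicates (coloured points), ordered within complex I to V by mean level, with a dashed line at 1 TPM. The members with a mean under the line are complex IV genes of restricted range, of which Cox4i2 and Cox7b2 are under it only in replicate 3. Atp5b is the highest at 361 to 480 TPM. Open triangles mark values of 0, drawn at 0.05 TPM.

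Within each library the complexes kept 1 order by median level, with complex V highest, then IV, III, II and I. The medians on the log2(TPM + 1) scale were 5.77 ± 0.05 for complex V, 5.36 ± 0.13 for IV, 5.26 ± 0.08 for III, 4.97 ± 0.22 for II and 4.45 ± 0.08 for I (SD, n = 3). The values of neighbours overlapped between replicates for IV and III and for III and II, and did not overlap for V and IV or for II and I. The position of complex IV depended on its restricted isoforms: without those 8 genes its median was 6.11 ± 0.19, above that of complex V. Members lay on 19 chromosomes, with at most 9 on 1 chromosome, chromosome 7, and with 3 on X.

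Complex I, the NADH dehydrogenase, had the lowest median, at 22.0, 20.9 and 19.7 TPM in replicates 1, 2 and 3. Its 36 members all exceeded 1 TPM but spanned a 23.8-fold range. Ndufa7, an accessory subunit (ENSMUSG00000041881, GRCm38 chr17:33824572-33838317), was highest at 90.7, 81.4 and 73.9 TPM. Ndufc1, an accessory subunit of the membrane arm, was second by mean at 83.7, 63.4 and 46.6 TPM. Ndufb8, another such subunit, had 72.7, 65.5 and 48.5 TPM and exceeded Ndufc1 in replicates 2 and 3, so their order did not hold beyond the spread. Ndufb3, another membrane arm subunit (ENSMUSG00000026032, chr1:58586384-58595964), was lowest at 3.30, 3.68 and 3.34 TPM, and no value of it came within 20-fold of Ndufa7 in the same library. Ndufs5 was next lowest at 4.83, 5.49 and 5.74 TPM, but its counts were shared with a pseudogene, as described below.

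The catalytic core of complex I was less spread than the accessory subunits. The 7 nuclear core subunits ranged from 15.9 to 32.6 TPM, a 2.05-fold range, with a median of 4.56 ± 0.17 on the log2(TPM + 1) scale, against 4.45 ± 0.07 for the 29 accessory subunits (SD, n = 3), whose range was the full 23.8-fold. In replicates 1, 2 and 3 respectively, Ndufv1, which binds FMN and NADH, had 19.57, 13.96 and 14.14 TPM. Its iron-sulfur partner Ndufv2 had 34.97, 33.15 and 29.76 TPM, a ratio of 2.09 ± 0.29 to Ndufv1 (SD, n = 3). Ndufs1, the largest core subunit, had 26.1, 20.7 and 21.5 TPM. On the TPM scale, Ndufs3 varied most among the core, at 30.8, 21.0 and 16.7 TPM, with a coefficient of variation of 31.6%. In CPM scaled by TMM, without length scaling, Ndufs3 was steady, at 38.7, 37.2 and 35.4. The iron-sulfur subunit Ndufs7 had 19.1, 17.0 and 14.3 TPM. Ndufs8, also an iron-sulfur subunit, had 20.9, 19.9 and 22.0 TPM. Values of Ndufs1 did not overlap those of Ndufv1.

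Complex II, succinate dehydrogenase, has no mitochondrial encoded subunit, and its 4 genes were the closest together, within 1.64-fold by mean TPM. Sdha, the flavoprotein that oxidises succinate, was lowest at 23.9, 19.6 and 21.1 TPM. Sdhb, the iron-sulfur subunit, had 40.8, 32.8 and 32.3 TPM and exceeded Sdha in every library, by a ratio of 1.64 ± 0.09 (SD, n = 3). The membrane anchors Sdhc, at 41.7, 29.4 and 26.1 TPM, and Sdhd, at 32.0, 28.1 and 27.7 TPM, overlapped: their ratio was 1.10 ± 0.19, and Sdhd was the higher of the pair in replicate 3.

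Complex III, the cytochrome bc1 complex, ranged from 19.9 to 98.9 TPM over its 8 genes. Uqcrq, Uqcr10 and Uqcrb, which are small subunits, were the 3 highest. Uqcrq had 108, 104 and 84.1 TPM in replicates 1, 2 and 3, and Uqcr10 had 95.3, 88.9 and 76.9 TPM. Uqcrb, which lies near the quinone pocket, had a mean of 76.3 ± 11.4 TPM. The small subunits Uqcrh, at 42.2, 39.0 and 38.3 TPM, and Uqcr11, at 29.1, 31.9 and 31.3 TPM, were lower and lay on either side of the core protein Uqcrc2 in every library. Of the core proteins, Uqcrc1 was at 33.8, 29.0 and 22.9 TPM and Uqcrc2 was at 37.32, 35 and 33.41 TPM. Uqcrc1 was below Uqcrc2 in every library, at a ratio of 0.806 ± 0.112 (SD, n = 3). Uqcrfs1, the Rieske iron-sulfur protein, was lowest at 20.9, 22.4 and 16.5 TPM.

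Complex V, the ATP synthase, had both the highest member and a wide range. Atp5b, the catalytic beta subunit (ENSMUSG00000025393, chr10:128083273-128090391), had 480, 404 and 361 TPM in replicates 1, 2 and 3. Atp5a1, the alpha subunit that alternates with beta in the same ring (ENSMUSG00000025428), had 194, 153 and 158 TPM. The TPM values of these genes did not overlap, and the ratio of Atp5b to Atp5a1 was 2.46 ± 0.18 (SD, n = 3). That ratio depends on the mean lengths in the tables, 1065 nt for Atp5b and 1707 nt for Atp5a1. Without length scaling the genes were closer, at 11644, 7379 and 6313 counts for Atp5b and 7663, 4750 and 4846 for Atp5a1. In the assembled enzyme the ring holds equal numbers of both proteins. The central stalk genes fell from Atp5c1 (gamma) at 86.1 ± 14.1 TPM to Atp5d (delta) at 48.0 ± 6.35 and Atp5e (epsilon) at 20.4 ± 4.17. The peripheral stalk genes Atp5o, Atp5f1, Atp5h and Atp5j had means between 41.1 and 92.4 TPM. At the low end, Atp5s, which is not a structural subunit of the enzyme, had 2.36, 2.48 and 1.70 TPM. Atp5k, which encodes subunit e, had 3.42, 3.29 and 6.82 TPM from only 23, 14 and 32 counts.

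The c-ring of complex V, the proton-driven rotor, is encoded by 3 genes whose mature protein is the same and whose import sequences differ. Atp5g3 had 96.9, 78.5 and 52.6 TPM in replicates 1, 2 and 3, Atp5g1 had 48.2, 59.0 and 59.1 TPM, and Atp5g2 had 6.40, 5.79 and 5.59 TPM. Atp5g2 was lowest in every library. Atp5g3 exceeded Atp5g1 in replicates 1 and 2 but not in replicate 3, so their order did not hold beyond the spread. As shares of the summed TPM of the 3 genes, Atp5g3 held 54.5 ± 9.56%, Atp5g1 41.1 ± 9.28% and Atp5g2 4.35 ± 0.38% (SD, n = 3). The Atp5g1 and Atp5g2 values depended on how reads were divided with pseudogenes, as given below.

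The paralogous subunits of complex IV, cytochrome c oxidase, gave the sharpest contrasts among members. Of 8 pairs of a broadly expressed and a restricted isoform, the broad isoform was higher in all 3 libraries in 8. An exact two-sided sign-flip test over 3 libraries cannot go below p = 0.25, which each pair gave, so no pair could pass a threshold. Cox4i1, which with its paralog encodes the largest nuclear subunit, had 90.4, 91.3 and 62.3 TPM, and Cox4i2, the lung and low-oxygen isoform, had 1.25, 1.27 and 0.18 TPM. Cox7b had 138, 117 and 129 TPM, and its testis paralog Cox7b2 had 1.18, 1.20 and 0.13 TPM. Ndufa4 had 146, 131 and 103 TPM, and Ndufa4l2, known as a hypoxia-induced gene, had 5.10, 5.34 and 1.45 TPM. The mean differences on the log2(TPM + 1) scale were 5.48 ± 0.23, 6.19 ± 0.58 and 4.79 ± 0.54 (SD, n = 3). In all 3 of these pairs the restricted isoform was lowest in replicate 3: Cox4i2 had 20, 14 and 2 counts, Cox7b2 had 13, 9 and 1, and Ndufa4l2 had 95, 63 and 22. Ndufa4l2 was not called in edgeR's goodness-of-fit test described below (adjusted p = 0.726), and Cox4i2 and Cox7b2 did not pass its filter on counts. The fibroblast markers Thy1, at 3.02, 3.30 and 1.19 TPM, and Col1a1, at 0.13, 0.07 and 0.03 TPM, were also lowest in replicate 3. Col1a2 went the other way, with 0, 0 and 2 counts, and Col3a1, Lum and Dcn had no counts. Lower TPM in replicate 3 was not particular to these genes. The median of the 8 pluripotency markers was 65.7, 58.4 and 54.4 TPM in replicates 1, 2 and 3, although Zfp42 was highest in replicate 3. That of protein-coding genes at 1 TPM or more was 7.105, 5.58 and 4.39 TPM. Any part of fibroblasts in the levels of Cox4i2, Cox7b2 and Ndufa4l2 was not tested. With a pseudocount of 0.1 in place of 1, the 3 mean differences were 6.64, 7.46 and 5.15, and as CPM, without length scaling, that of Ndufa4 and Ndufa4l2 was 4.07.

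The muscle isoforms did not behave as a group. Cox8b had 0 counts in every library, as did the testis isoform Cox8c, while their broad paralog Cox8a had 188, 148 and 129 TPM. Against 3 counts per library, the limit that a count of 0 allows, Cox8a was at least 185-fold higher than Cox8b and at least 265-fold higher than Cox8c. Cox6a2 had 3, 0 and 1 counts, at or under that limit in each library, while Cox6a1 had 37.4, 36.0 and 26.3 TPM. In contrast, Cox7a1, the third muscle isoform, was expressed at 13.3, 9.85 and 6.68 TPM, beside 41.3, 35.9 and 36.5 TPM for Cox7a2. That pair had the smallest difference of the 8, 1.87 ± 0.37 on the log2(TPM + 1) scale, and Cox7a1 made up 20.4 ± 4.51% of their summed TPM (SD, n = 3). As CPM, without length scaling, the difference was 2.51. Among muscle markers, Ckm, Acta1, Tnnt3, Myh6 and Myh7 were at 3 counts or fewer in every library and Mylpf was at 33.1, 37.5 and 46.5 TPM. In TPM, Mylpf was highest and Cox7a1 lowest in replicate 3. In CPM scaled by TMM, without length scaling, Cox7a1 was at 7.71, 6.93 and 6.22 in replicates 1, 2 and 3. Any part of muscle cells in the level of Cox7a1 was not tested.

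A testis isoform was also detected. Cox6b2 had 28.47, 15.74 and 14.01 TPM, from 274, 109 and 97 counts, against 201, 155 and 158 TPM for Cox6b1, the subunit that joins the monomers of the enzyme. The difference was 3.13 ± 0.32 on the log2(TPM + 1) scale, and Cox6b2 made up 9.93 ± 2.23% of the pair (SD, n = 3). The germ cell markers Tnp1, Prm1, Prm2 and Odf1 had no counts, Tnp2 had 1, and Ldhc had 0.77 TPM.

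**Figure D2:**
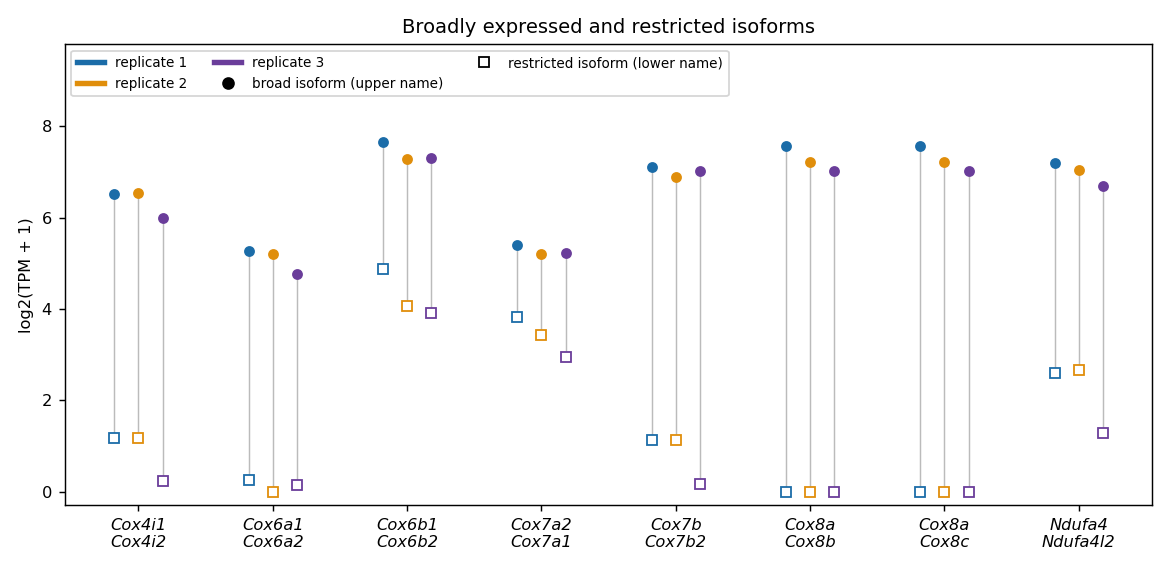
Levels as log2(TPM + 1) of the broad isoform (filled circles, upper name) and the restricted isoform (open squares, lower name) in each of the 3 replicates, joined by a line within a library. Every line runs upward from the restricted isoform, the shortest for Cox7a2 and Cox7a1 and the longest for Cox8a, whose paralogs Cox8b and Cox8c are at 0.

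The 200 bases before the start of Cox8a and of Cox8b are shown because no pair differed more in level than these paralogs. Both are RefSeq sequences on GRCm38.p6, read 5′ to 3′ on the minus strand, chr19:7217617-7217816 for Cox8a and chr7:140900447-140900646 for Cox8b, with CpG dinucleotides in capitals.
Cox8a: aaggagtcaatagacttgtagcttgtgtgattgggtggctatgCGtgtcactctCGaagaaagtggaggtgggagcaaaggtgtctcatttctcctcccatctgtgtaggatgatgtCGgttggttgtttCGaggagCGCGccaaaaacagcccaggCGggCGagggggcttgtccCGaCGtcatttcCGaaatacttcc
Cox8b: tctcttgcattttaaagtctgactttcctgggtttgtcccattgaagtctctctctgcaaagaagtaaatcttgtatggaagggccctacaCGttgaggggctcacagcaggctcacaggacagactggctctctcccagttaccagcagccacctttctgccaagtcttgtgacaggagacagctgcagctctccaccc
The Cox8a stretch holds 11 CpG and the Cox8b stretch 1, although their GC contents are close, 53.0% and 51.5%. CpG were also counted in the window from 250 bases before to 50 after the start. Restricted isoforms with a promoter sequence matched here were Cox6b2 and Cox7b2 with 10 CpG each, Cox7a1 with 7 and Cox8b with 2. Their broad paralogs had 17 (Cox6b1), 5 (Cox7b), 20 (Cox7a2) and 19 (Cox8a), so Cox7b, at a mean of 128 TPM, had fewer than Cox7b2, at 0.84 TPM.

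A promoter entry was found for 69 members, and these windows were searched on both strands for 3 motifs. The median was 19 CpG per window, beside 22 for the 7849 protein-coding genes at 1 TPM or more and 13 for all 17491 protein-coding genes with an entry. The NRF1 motif, the letters GCGCA and GCGC separated by 1 base, named for the factor first found at the cytochrome c promoter, was in 16 members, 23.2%. It was in 12.3% of the protein-coding genes at 1 TPM or more, in 6.60% of all protein-coding genes and in 4.78% of the 27025 genes of the table. The YY1 motif AAGATGGC was in 9 members, 13.0%, against 5.64% of protein-coding genes at 1 TPM or more. Of these 9, 7 were among the 32 complex I genes with a promoter entry, 21.9% of them: Ndufa3, Ndufa9, Ndufb8, Ndufc1, Ndufs4, Ndufs6 and Ndufs7. The ETS motif CCGGAAG, bound by the GABP family, was in 15 members, 21.7%, which is close to the 21.5% of protein-coding genes at 1 TPM or more. These shares are descriptions, and a match is not shown to be bound.

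The NRF1 matches are shown for the member of highest TPM that holds one in each complex, with 10 bases on either side and the match in capitals. Uqcrc1 and Cox6a1 each hold 2 matches, of which 1 is shown. All are RefSeq sequence on GRCm38.p6, 5′ to 3′ on the strand of the gene.
Ndufa11 (complex I, chr17:56717692-56717721, plus strand): cctgcactgcGCGCATGCGCgcacgccttg
Sdhd (complex II, chr9:50603909-50603938, minus strand): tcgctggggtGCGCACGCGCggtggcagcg
Uqcrc1 (complex III, chr9:108936643-108936672, plus strand): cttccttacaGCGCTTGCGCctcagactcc
Cox6a1 (complex IV, chr5:115349101-115349130, minus strand): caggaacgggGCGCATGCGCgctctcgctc
Atp5o (complex V, chr16:91931602-91931631, minus strand): gctggcgcgcGCGCGTGCGCtctggcgcca
Counting the first transcribed base as 0, the matches shown begin at -60 in Ndufa11, -79 in Sdhd, 5 in Uqcrc1, -162 in Cox6a1 and 9 in Atp5o. Those of Uqcrc1 and Atp5o match the motif on the opposite strand. The genes for the factors were themselves expressed, with Nrf1 at 13.28, 11.74 and 11.01 TPM, Gabpa at 10.04, 8.85 and 7.10 TPM, and Yy1 at 10.4, 9.44 and 6.82 TPM in replicates 1, 2 and 3. The coactivator gene Ppargc1a, known for raising respiratory genes in muscle and brown fat, had no count in any library. Of its relatives, Ppargc1b had 0.55, 0.51 and 0.16 TPM and Pprc1 had 22.7, 18.2 and 5.33 TPM. The nuclear receptor genes Esrra and Esrrb had 3.26 ± 1.13 and 50.2 ± 13.0 TPM (SD, n = 3).

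Assembly factors, which build the complexes but are not part of them, were lower than the subunits. Of 47 listed, 44 had at least 1 TPM and 6 at least 10 TPM. Their median was 5.03, 4.70 and 3.91 TPM in replicates 1, 2 and 3, or 2.47 ± 0.15 on the log2(TPM + 1) scale (SD, n = 3), close to the 2.72 of protein-coding genes at 1 TPM or more. The 3 under 1 TPM were Pet117, at 0, Sdhaf1, at 0.83, and Lyrm7, at 0.90. The 9 listed respiratory genes that the name rule missed all reached 1 TPM, led by Atpif1, the ATP synthase inhibitor, at 67.6 ± 12.5 TPM, and Cyc1, the cytochrome c1 of complex III, at 64.1 ± 14.3 TPM. Cyc1 therefore lay within the range of the complex III members. The 13 mitochondrial encoded subunits had a median of 9.82 ± 0.34 on the log2(TPM + 1) scale (SD, n = 3), from mt-Nd6 at 40.1 ± 11.4 TPM to mt-Co1 at 10781 ± 1851 TPM.

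Several members have near-identical processed pseudogenes, and their reads were divided between rows. A search at 95% identity or more over at least 100 nt and at least 50% of the copy found 50 pseudogene copies of 26 members. Of the copies, 24 had counts, 9 had a mean of at least 1 TPM and 5 exceeded their parent gene in TPM. Over all members the copies held 3.72%, 3.53% and 3.64% of the counts of members and copies together, but for 7 members the share was above 15%. For Atp5g2 it was 86.0%, 88.6% and 87.1% in replicates 1, 2 and 3, given to Gm10175 (chr7:23946646-23947290), which is identical to it over 645 nt. For Ndufa12 the share was 72.0 ± 5.77%, for Ndufb4 64.6 ± 2.76%, for Ndufs5 48.7 ± 8.92%, for Cox7c 39.7 ± 5.92%, for Atp5g1 22.3 ± 7.32% and for Cox7a2l 17.6 ± 2.44% (SD, n = 3). The levels given above for these 7 genes are uncertain to that extent. The low rank of Atp5g2 within the c-ring and the low rank of Ndufs5 within complex I are both among the values affected.

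**Figure D3:**
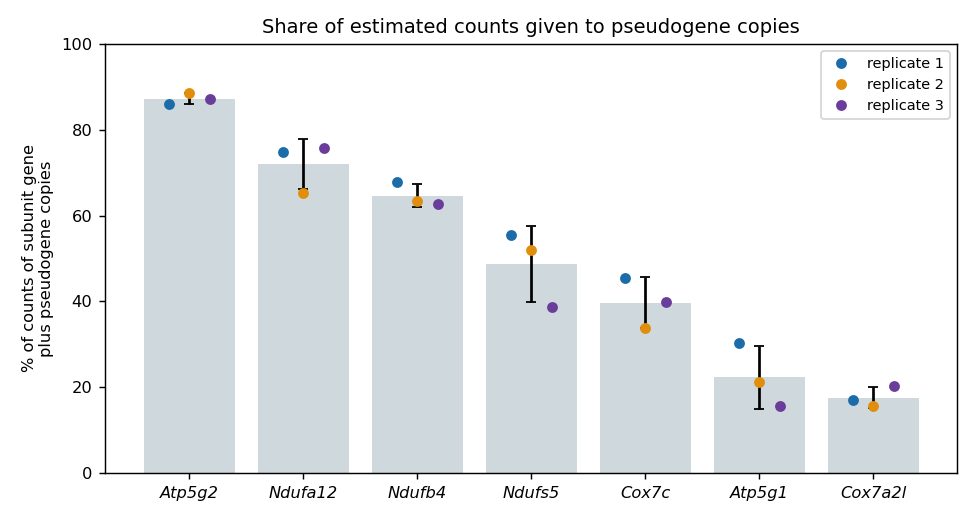
Share (%) of the estimated counts of a member and its pseudogene copies that was given to the copies, for the 7 members above 15%. Bars are means, error bars SD and points the 3 replicates; the share falls from 87.2% for Atp5g2 to 17.6% for Cox7a2l.

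Overlapping genes add a further uncertainty. With Atp5o counted once, exons of 18 members overlap an exon of another row at 1 TPM or more, 16 on the opposite strand. The libraries were directional, but whether counting used the strand is not given in the sources used here. Lengths given here are those of the largest overlap between single exons, not of all sequence shared. Among the members the results turn on, Ndufa4l2 shares 32 nt with Shmt2, at 44.7 TPM, and Cox4i1 shares 154 nt with Emc8, at 21.2 TPM. On the same strand, the second Atp5o row (ENSMUSG00000116933, chr16:91684398-91926982) shares 130 nt of exon with Atp5o itself (ENSMUSG00000022956, chr16:91925214-91931687) and 204 nt with Donson. It had 10.9, 2.72 and 5.72 TPM, against 98.38, 88.82 and 89.95 TPM for Atp5o. Its values were the most uneven of any member with a mean above 1 TPM, with a coefficient of variation of 64.2%.

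The variation of members between replicates, set against other genes, depended on the scale. The median coefficient of variation in TPM was 13.4% over the 81 members at 1 TPM or more, beside 23.8% over protein-coding genes at that level, which have a lower median abundance. In TMM-scaled CPM, by contrast, the median absolute log2 difference between replicates 1 and 2 was 0.19 over members and 0.14 over all genes tested. Between replicates 1 and 3 it was 0.36 over members and 0.26 over all genes, and between 2 and 3 it was 0.23 over both. In edgeR's goodness-of-fit test, which asks whether a gene's counts vary more than genes of similar abundance, 81 members passed the filter on low counts. None of the 81 was called at a Benjamini-Hochberg adjusted p under 0.05, where 232 of 12577 genes were called, 1.84%. At an unadjusted p under 0.05, the same edgeR test gave 5 members, Atp5g1, Atp5j2, Atp5k, Ndufa2 and the second Atp5o row, where 6.96% of all genes tested passed that level. With DESeq2 size factors the test also gave 0 members. The smallest adjusted p from edgeR was 0.0924, for the second Atp5o row, followed by 0.0946 for Atp5k. With the counts corrected for transcript length, that Atp5o row was called at an adjusted p of 0.0228 in edgeR, where 1.49% of all genes were called. Without replicate 3, it and Cox7c were called, 2 of 83 members tested, where 0.683% of all genes were. Cox7c had 61.1, 89.1 and 59.4 TPM, high in replicate 2. The share of counts given to its pseudogene copies was 45.5%, 33.7% and 39.9%, lowest in replicate 2. For Atp5g1 that share fell from 30.2% to 21.1% and 15.7% in replicates 1, 2 and 3. How far this division of reads enters the results of these genes was not tested.

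The difference of replicate 3 from the other replicates was examined because it had earlier been seen to follow gene length, and its direction for members depended on the scale. In CPM scaled by TMM, which corrects for library size and composition but not for length, 71 of the 81 members were higher in replicate 3 than in the mean of replicates 1 and 2. The median log2 difference was 0.31 over members, 0.00 over all 12577 genes and 0.20 over the 1703 protein-coding genes of the same length range. Members are short, with a median length of 657 nt against 2191 nt for protein-coding genes at 1 TPM or more, and after correction for length the median difference over members was 0.04, with 45 above 0 and 36 below. Atp5k was the extreme, at 1.47, and Ndufa4l2 the opposite extreme, at -1.03. On the TPM scale, 55 of the 84 members with any count were lowest in replicate 3 and 59 were highest in replicate 1. The same counts were not made over all genes. This direction was not particular to members, as the median of protein-coding genes at 1 TPM or more was 7.105, 5.58 and 4.39 TPM in replicates 1, 2 and 3. Levels set side by side within a library, such as the isoform pairs, do not use a comparison between libraries. A shift that follows length could still enter them where the genes differ in length, which was not tested.

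**Figure D4:**
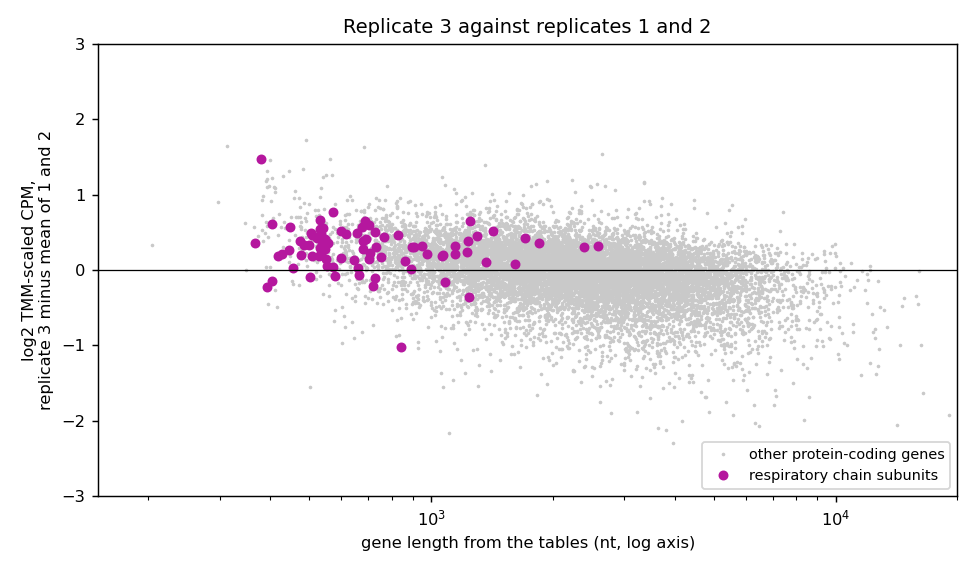
Log2 difference in TMM-scaled CPM between replicate 3 and the mean of replicates 1 and 2 (vertical axis) against gene length in nt (log axis), for the members (coloured) and other protein-coding genes that passed the filter (grey; 2 lie outside the axes). Members sit at the short end, where the grey cloud lies above 0, with Atp5k highest and Ndufa4l2 lowest.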

How the data were processed

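RNA-seq of 3 replicates of E14 cells was used, grouped by their titles. Per the file headers, the authors deposited an expected count for each gene, estimated by RSEM and not normalized, together with its TPM, FPKM, length and effective length. The submitters' processing notes name STAR, RSEM and the build mm10; the annotation release and strand setting are not given in the sources used here. RSEM divides reads that match several genes among them. Levels are the deposited TPM, as log2(TPM + 1), with FPKM as an alternative.

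GENCODE vM21 (GRCm38) gave gene names, types and positions by identifier for 55227 of 55487 genes, and promoters from RefSeq on GRCm38.p6. Counts were rounded before the fit with edgeR 4.0.16 under R 4.3.3 (intercept-only design, TMM, filterByExpr, goodness-of-fit against the trended dispersion, adjusted p under 0.05), a procedure tested on simulated data. DESeq2 1.42.0 gave alternative size factors. The length correction used the deviation of each gene's log2 CPM from its mean over the libraries. It removed, in each library, the smooth trend of that deviation on log transcript length. Copies were found with BLAST 2.17.0 and overlaps with bedtools 2.31.1; tables and plots were made with Python 3.11.15, pandas 2.3.3, numpy 2.4.6, matplotlib 3.10.9 and scipy 1.17.1. A count of 0 was bounded at 3 counts per library, 0.263, 0.464 and 0.518 CPM in replicates 1, 2 and 3, a bound on counting error alone, as reads can be PCR copies.

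Members and lists were chosen with earlier results of these data known. Full values are given for the extremes of each complex, isoform pairs, the Atp5g genes, catalytic cores, called members and members at 3 counts or fewer; pseudogenes and overlapping genes were named after their values were seen. Values of 1 complex I member are not reported here singly. Protein sequences were not used here.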

Additional observations from a re-analysis of the deposited data

How the results depend on the processing

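Of 80 alternative values for 14 results (79 planned, 1 chosen after seeing the data), 63 stayed the same, 17 moved and 0 reversed. Levels and differences stayed the same if within the spread of the main value. For the median level and the pair differences, leaving out 1 of 3 replicates cannot move a value past that spread. For the difference of replicate 3, the spread was itself taken from the values with a replicate left out. The number that stayed the same is therefore not a measure of stability. Numbers of members or pairs stayed the same if equal to the main value or within a set fold of it. The median level of members, 4.93 on the log2(TPM + 1) scale, was 6.40 in FPKM and 6.35 in TPM rescaled without genes of effective length under 100 nt, and 4.86 to 5.01 with each replicate left out. The number of members at 1 TPM or more was 81 to 83 with a replicate left out. The number of members varying beyond the trend was 1 with the length correction (1.49% of all genes called) and 0 to 2 with a replicate left out (0.474% to 0.709% of all genes). The difference of replicate 3 was 0.0375 with the length correction and 0.22 to 0.36 with replicate 1 or 2 left out. The broad isoform was higher in 8 of 8 pairs under every alternative run. Only the run in CPM could have changed an order, because the others drop a library or keep the order within it. Of 48 alternative pair differences, 36 stayed within 1 SD and 12 moved, from 1.67 to 10.58 in all. The 36 include all those with a replicate left out, which could not have moved. The 12 that moved came from CPM, the rescaled TPM or the pseudocount of 0.1. Counting Ndufa4 and Ndufa4l2 in complex I left its median at 4.45. Ndufa4 lies above that median and Ndufa4l2 below it in every library, so it could not have changed. No paired analysis was possible because the analysed libraries form 1 group. With 3 libraries the exact test of a pair cannot pass a threshold, so its p says nothing of stability. Depth limits the genes near 3 counts.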
